A study of Mus musculus with 4 samples.

Results

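The 10 genes Flt3, Zbtb46, Batf3, Irf4, Irf8, Id2, Xcr1, Itgax, Clec9a and Siglech are classical genes by which dendritic cell subsets are told apart. All 10 had peaks, of 17149 protein-coding genes with at least 1 peak in the data set. Chromatin accessibility was measured by single-nucleus ATAC-seq, in which a transposase cuts open DNA and leaves a barcode. That barcode and indices added by PCR together assign each read to a nucleus. Nuclei came from whole inguinal white adipose tissue (iWAT) of male C57BL/6 mice aged 8 weeks.

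There were 21 mice, 3 in each of 7 groups, and the labels name no transgene or deletion. The day0RT mice stayed untreated at room temperature (22 °C). The day1C, day3C and day7C mice were kept at 6.5 °C for 1, 3 or 7 days. The day1CL, day3CL and day7CL mice received CL-316,243 (CL), a β3-adrenergic agonist, at 1 mg/kg for the same times at room temperature. The authors sorted 32552 nuclei into 12 clusters, of which Dend (dendritic cells, 677 nuclei, 2.08%) and Macro (macrophages, 1229 nuclei) are the myeloid ones. A library here is the sum over the nuclei of 1 cluster in 1 mouse, with at least 10 nuclei, which gave 17 Dend and 21 Macro libraries. Each entry of the matrix is 0 or 1, so a count is a nucleus with reads in a peak, and the level of a gene is the sum over the peaks on its body and 2000 bases upstream divided by all gene counts of the library and scaled to a total of 1000000 (CPM).

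Conventional dendritic cells arise from bone marrow precursors that depend on the cytokine receptor Flt3, and they carry the transcription factor Zbtb46, which monocyte-derived macrophages largely lack. They divide into the cDC1 subset, which depends on Irf8, Batf3 and Id2, displays Xcr1 and Clec9a and cross-presents antigen to CD8 T cells, and the cDC2 subset, which relies on Irf4. Plasmacytoid dendritic cells (pDC) bear Siglech and make type I interferon, and any conventional subset can mature into an activated, migratory state that carries antigen to lymph nodes. In adipose tissue both dendritic cells and macrophages take up antigen and present it to T cells.

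Before the values, 5 windows of open chromatin are shown because the contrast between Dend and Macro was largest there, or because they hold the start of a member. Capitals mark matches to 4 short motifs searched on both strands: PU.1 (GGAAGT), AP-1 (TGANTCA), IRF (AANTGAAA) and NF-kB (GGGANTTTC). No motif's letters contain another's, though matches may overlap. Each window is written 5′ to 3′ on the strand of its gene, with mm10 coordinates (RefSeq, build GRCm38.p6, for the promoter of Siglech).
Flt3, a coding exon and the flanking introns, chr5:147355905-147356204, minus strand, higher in Dend: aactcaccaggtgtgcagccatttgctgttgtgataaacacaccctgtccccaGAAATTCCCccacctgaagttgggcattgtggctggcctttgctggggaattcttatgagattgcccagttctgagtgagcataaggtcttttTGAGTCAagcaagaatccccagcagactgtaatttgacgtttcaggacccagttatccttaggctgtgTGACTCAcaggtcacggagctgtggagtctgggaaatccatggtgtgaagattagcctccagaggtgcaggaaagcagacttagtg
Flt3, intron close to the start, chr5:147399435-147399663, minus strand, higher in Dend: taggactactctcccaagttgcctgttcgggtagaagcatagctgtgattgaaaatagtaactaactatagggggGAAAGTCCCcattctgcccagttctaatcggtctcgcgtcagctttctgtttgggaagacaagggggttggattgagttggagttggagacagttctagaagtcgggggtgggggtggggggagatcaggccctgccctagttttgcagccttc
Batf3, intron, chr1:191105931-191106200, plus strand, higher in Dend: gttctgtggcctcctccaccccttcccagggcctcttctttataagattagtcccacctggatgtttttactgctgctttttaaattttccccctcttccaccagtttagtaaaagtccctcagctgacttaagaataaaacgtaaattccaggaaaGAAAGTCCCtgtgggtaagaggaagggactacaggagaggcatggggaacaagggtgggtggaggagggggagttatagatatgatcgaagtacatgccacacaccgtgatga
Irf8, intron, chr8:120750685-120750984, plus strand, lower in Dend: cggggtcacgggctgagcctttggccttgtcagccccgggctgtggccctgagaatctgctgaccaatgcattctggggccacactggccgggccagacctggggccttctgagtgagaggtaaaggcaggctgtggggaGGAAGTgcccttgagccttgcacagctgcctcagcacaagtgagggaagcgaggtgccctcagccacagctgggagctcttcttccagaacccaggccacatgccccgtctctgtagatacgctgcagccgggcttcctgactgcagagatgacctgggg
Siglech, promoter, chr7:55767934-55768233, plus strand, lower in Dend: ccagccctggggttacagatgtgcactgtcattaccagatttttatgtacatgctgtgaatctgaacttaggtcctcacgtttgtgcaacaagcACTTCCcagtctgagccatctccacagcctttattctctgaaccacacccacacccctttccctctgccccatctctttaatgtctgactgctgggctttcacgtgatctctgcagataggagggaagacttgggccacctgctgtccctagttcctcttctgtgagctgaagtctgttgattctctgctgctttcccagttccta

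The authors made their clusters from the same matrix, so tests between clusters are not independent of the clusters and are read as a description. Their SE and p-values rest on the spread over the libraries of all clusters. They do not measure the spread over mice of the difference between Dend and Macro alone. Gene counts ran from 9965 to 216412 in Dend libraries and from 18916 to 215608 in Macro libraries. Mouse 3 of day1CL, mouse 2 of day3CL and mouse 1 of day3C stood apart, with 11.9%, 14.1% and 36.8% of lymphocyte nuclei. Together with mouse 1 of day3CL they had too few Dend nuclei for a library. In the 3 mice with few lymphocytes, Dend made up 0.817%, 0% and 0.407% of the non-lymphocyte nuclei, against 2.14% to 33.4% in the other mice. Macro made up 15.1%, 2.09% and 3.54% of all nuclei in these 3 mice. Whether the share of Dend follows that of lymphocytes was not tested. Barcode sequences found in more than 1 mouse belonged to 117 of the Dend nuclei, and none was repeated within a mouse. The calls of Flt3, Zbtb46, Irf8 and Id2 between Dend and Macro, given next, were also made without these nuclei. They were made without the 3 mice with few lymphocytes too. These mice gave no Dend library, so that fit removed no mouse with both libraries and says little about them. No barcode sequence was shared between mice of the same day (0 pairs), and 0 day0RT nuclei carried a shared one. The reporting notes of the study name 3 independent batches without saying which mice each held, so no batch term could be fitted and the part of batch in the treatment comparisons was not tested.

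Compared with Macro, the Dend cluster was more accessible at Flt3, Zbtb46, Batf3 and Id2 and less accessible at Irf8, Clec9a and Siglech, while Irf4, Xcr1 and Itgax were not called. Flt3 stood about 2-fold above Macro (log2 fold change 1.01, SE 0.109), Batf3 further still (1.40, SE 0.212), and Irf8 lay below Macro (-1.11, SE 0.143). The 4 genes with higher accessibility and the 3 with lower include members known for the same subset: the cDC1 factors Batf3 and Irf8 went in opposite directions, and so did the cDC1 factors Id2 and Irf8. The quasi-likelihood test of edgeR was applied to all genes in 1 fit of all clusters with the mouse as a block, and p-values were adjusted by Benjamini and Hochberg over all genes tested. Only Flt3, Zbtb46, Irf4, Irf8 and Id2 passed the filter on low counts (8896 genes), and Batf3, Xcr1, Itgax, Clec9a and Siglech were tested in a fit without that filter (17149 genes). Of all genes, 11.8% were called higher and 13.8% lower in Dend than in Macro, and 8.43% and 9.35% in the fit without the filter.

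Flt3 encodes the receptor for Flt3 ligand, the growth factor of dendritic cell precursors, and lies at chr5:147330741-147400489 on the minus strand with 22 peaks. Its level in Dend was 182.8 at the lowest, 489.8 at the median and 702.5 CPM at the highest of 17 libraries. In Macro it was 99.56, 249.2 and 398.6 CPM over 21 libraries. The ranges overlapped, but within mice Flt3 was higher in Dend in 16 of 17 mice that had both libraries. Averages were 474 ± 139.7 CPM in Dend and 230.8 ± 81.98 CPM in Macro (SD, n = 17 and 21), and the difference passed the test (edgeR, adjusted p = 2.302e-16). B cells came next at 195 ± 14.98 CPM (n = 21), then Cd4 cells at 144.9 CPM and Cd8 cells at 83.04 CPM. In this order Dend and Macro differed by more than their pooled SD, as did B cells and Cd4 cells and Cd4 and Cd8 cells, whereas Macro and B cells did not.

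Zbtb46 encodes a zinc finger factor that marks conventional dendritic cells and their committed precursors, and endothelial cells as well. It lies at chr2:181387762-181459426 on the minus strand with 10 peaks. Its level in Dend was 53.02, 161.7 and 293.4 CPM (lowest, median, highest) and in Macro 49.78, 105.7 and 179.7 CPM. The ranges overlapped widely and Zbtb46 was higher in Dend in 12 of 17 mice. The difference passed the test (log2 fold change 0.65, SE 0.157, edgeR adjusted p = 0.000382). The highest mean did not belong to an immune cluster: the cluster annotated as VSMC had 175.7 ± 45.42 CPM (n = 10), Dend 159.7 ± 71.29 CPM and VEC 124.2 CPM, and none of these neighbours differed beyond the pooled SD.

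Batf3 encodes a basic leucine zipper factor that pairs with Jun proteins and is required for cDC1 development. It lies at chr1:191097847-191108945 on the plus strand with 7 peaks. Its level in Dend was 0, 94.44 and 209.6 CPM and in Macro 0, 24.05 and 97.78 CPM, from 115 and 59 counts in all. Batf3 was higher in Dend in 15 of 17 mice, lower in 1 and tied in 1, although the ranges overlapped at the low end. With no filter on low counts the difference was called (edgeR, log2 fold change 1.40, adjusted p = 6.664e-09). Outside the myeloid clusters the highest mean was that of VEC, at 18.16 CPM, and the step from Dend to Macro exceeded the pooled SD while that from Macro to VEC did not.

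Irf4 and Irf8 encode interferon regulatory factors that bind DNA with PU.1 or Batf partners, Irf4 in cDC2, B and T cells and Irf8 in cDC1, pDC, monocytes and B cells. Irf4 (chr13:30749226-30766976, plus strand, 8 peaks) ran from 0 to 185.6 CPM in Dend, with a median of 85.15, and from 0 to 317.2 CPM in Macro, with a median of 84.17. It was higher in Dend in 10 of 17 mice, the ranges overlapped almost fully, and the difference was 0.04 on the log2 scale (SE 0.202, edgeR adjusted p = 0.909). Irf4 was highest in B cells at 271 ± 27.25 CPM (n = 21), followed by the Tcell cluster at 185.2, Cd4 at 143.9 and Cd8 at 110.1 CPM, all above Dend at 98.05 ± 56.32 CPM. Only B cells and the Tcell cluster differed beyond their pooled SD in that order.

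Irf8 (chr8:120736358-120756694, plus strand, 10 peaks) showed the opposite order from Flt3. Its level in Dend was 35.03, 122.5 and 215.6 CPM and in Macro 112.4, 276.6 and 440 CPM. Irf8 was higher in Macro in 17 of 17 mice, although the ranges overlapped between mice. The difference passed the test (log2 fold change -1.11, SE 0.143, edgeR adjusted p = 6.185e-12). Macro (274.7 ± 87.13 CPM) and B cells (240 ± 24.16 CPM) led the order without differing beyond their pooled SD, and APC2 at 143.3 CPM stood before Dend at 121.7 ± 54.24 CPM. All 10 peaks of Irf8 are also assigned to the readthrough gene Gm20388, so the value cannot be separated from it.

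Id2 encodes an inhibitor of E proteins that restrains the pDC program and is needed for cDC1 and innate lymphoid cells. It is a short gene, chr12:25093799-25097140 on the minus strand, with 2 peaks. Its level in Dend was 53.02, 130 and 292 CPM and in Macro 34.44, 89.01 and 215.7 CPM, with overlap over most of the range. Id2 was higher in Dend in 14 of 17 mice and the difference passed the test (log2 fold change 0.47, SE 0.155, edgeR adjusted p = 0.0133). This call was lost when a library needed 30 nuclei (0.45, edgeR adjusted p = 0.0725). Dend led with 140 ± 58.05 CPM, ahead of the Tcell cluster (126.9), APC1 (110), Cd8 (102.5) and Macro (101.4 ± 45.3 CPM), and no neighbours in this row differed beyond the pooled SD.

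Xcr1, the receptor for the chemokine Xcl1, and Clec9a, a lectin that senses dead cells, are the surface markers of cDC1. Xcr1 (chr9:123852315-123862029, minus strand, 2 peaks of which 1 is shared with Fyco1) was 0, 48.67 and 92.89 CPM in Dend and 0, 49.78 and 80.27 CPM in Macro. Dend was the higher in 10 of 17 mice and the fitted difference was -0.03 (SE 0.271, no filter on low counts, edgeR adjusted p = 1). Clec9a (chr6:129408862-129424763, plus strand, 3 peaks of which 1 is shared with Clec1b) was 0, 37.15 and 91.42 CPM in Dend and 24.05, 68.88 and 158.6 CPM in Macro. Clec9a was thus lower in Dend, in 13 of 17 mice, with overlapping ranges (log2 fold change -0.70, SE 0.229, edgeR adjusted p = 0.0181 without the filter). Its order was led by Macro at 73.74 ± 34.16 CPM, then APC2 at 56.78, VEC at 49.05 and Dend at 36.44 ± 27.07 CPM, none differing from its neighbour beyond the pooled SD. Xcr1 was highest in both myeloid clusters: Macro stood at 44.56 ± 27.1 CPM and B cells, the next, at 20.25 CPM, a step beyond the pooled SD.

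Itgax encodes CD11c, an integrin chain shared by dendritic cells and many tissue macrophages. It lies at chr7:128129547-128150657 on the plus strand with 5 peaks, and ran from 25.83 to 146 CPM in Dend (median 53.02) and from 0 to 179.7 CPM in Macro (median 69.63). Itgax was higher in Dend in 6 of 17 mice and the difference was not called (log2 fold change -0.13, SE 0.181, edgeR adjusted p = 0.718 without the filter). Both myeloid clusters, at 67.73 ± 37.59 and 64.31 ± 43.68 CPM, stood ahead of Cd8 cells at 39.33 CPM, a step within the pooled SD.

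Siglech encodes a sialic acid binding lectin of pDC that some macrophages also carry. At chr7:55768178-55778925, on the plus strand with 2 peaks, it was 0, 9.423 and 48.67 CPM in Dend and 0, 47.15 and 142.4 CPM in Macro. The Dend values rest on 13 counts in 17 libraries, 8 of them at 0, against 82 counts in Macro. Siglech was higher in Macro in 15 of 17 mice, with overlapping ranges (log2 fold change -1.56, SE 0.243, edgeR adjusted p = 4.133e-07 without the filter). Beyond these clusters it was near 0: B cells averaged 1.378 CPM, and APC1, VEC and VSMC held 0 counts, which allows at most 2.494, 6.23 and 5.111 CPM (3 counts over the cluster, counting error only).

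**Figure D1:**
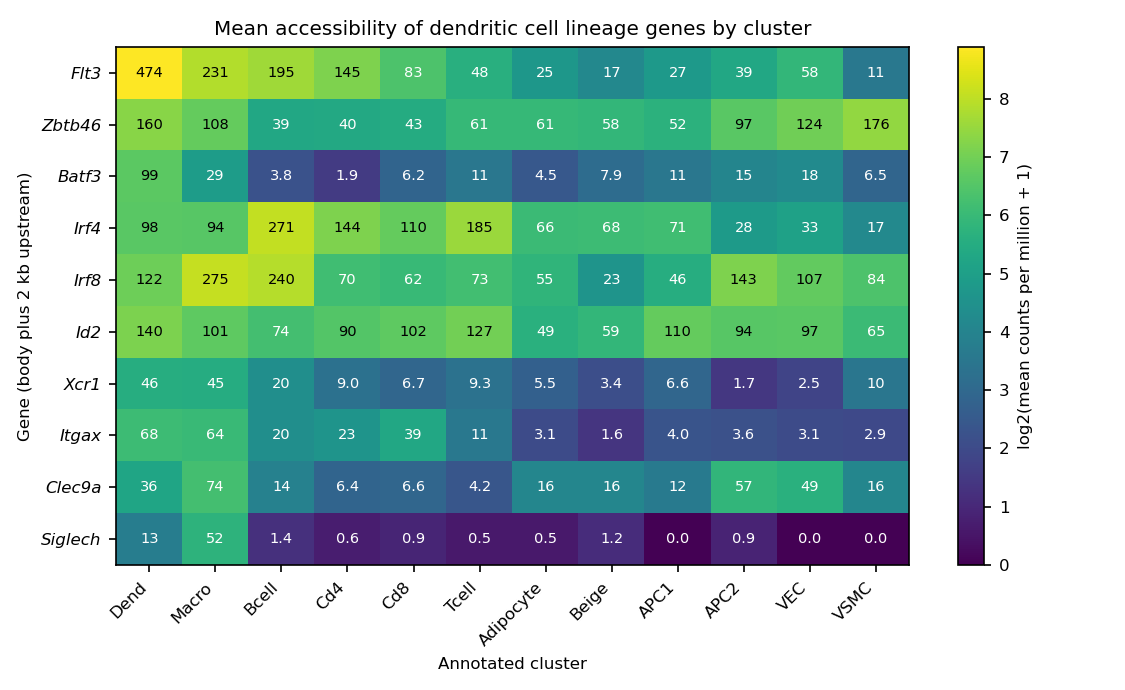
Mean level of the 10 genes (rows) in the 12 clusters (columns), averaged over the libraries of a cluster, with the CPM printed in each cell and log2(mean CPM + 1) as the colour. Dend has the highest mean for Flt3, Batf3, Id2, Xcr1 and Itgax, Macro for Irf8, Clec9a and Siglech, B cells for Irf4 and VSMC for Zbtb46.

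Levels of different genes can be set side by side only per length. Per kb of peak sequence, Dend was most accessible at Id2 (108.3 CPM per kb), then at Batf3 (55.06), Flt3 (50.96), Xcr1 (37.96) and Itgax (32.77), and least at Irf4 (15.52). In Macro the order began with Id2 (78.42), Siglech (75.79) and Irf8 (54.3 CPM per kb) and ended with Irf4 (14.93). On this scale Siglech moved from the second place in Macro to the last but one in Dend, at 18.34 CPM per kb, and Batf3 from 16.33 in Macro to the second place in Dend.

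**Figure D2:**
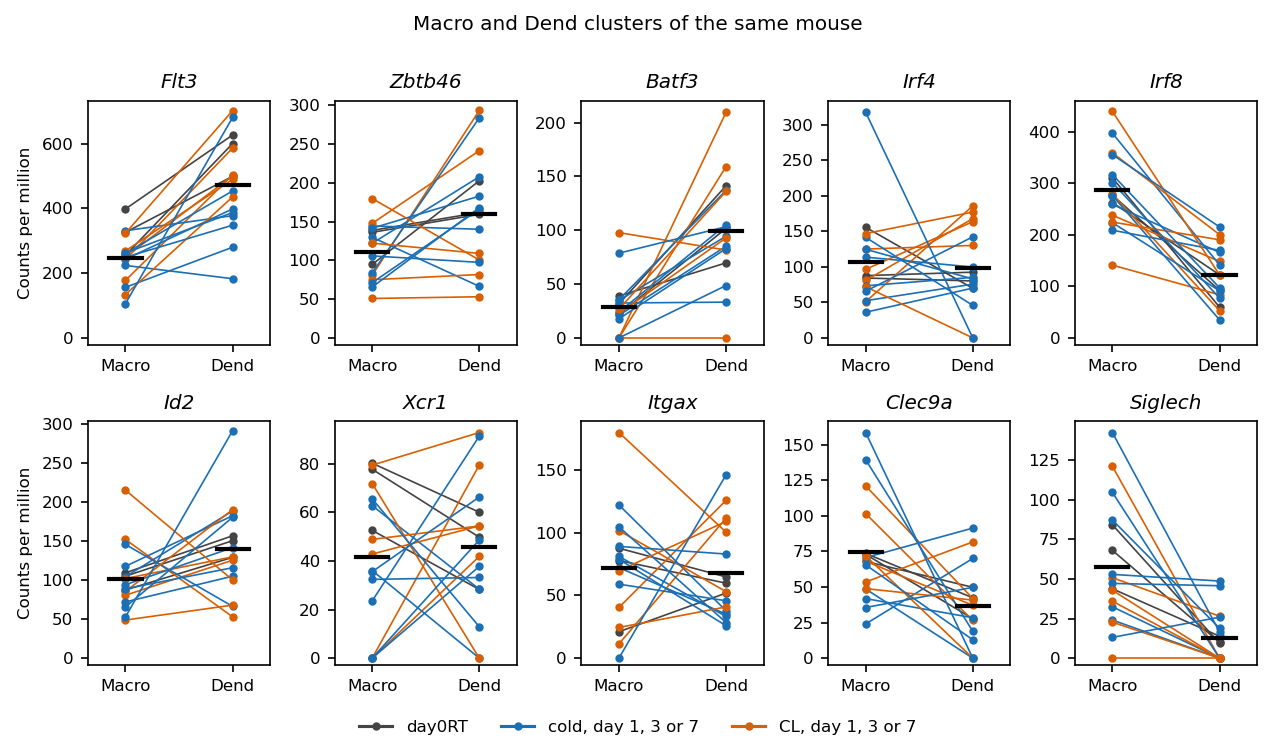
Level of each gene in CPM in Macro (left) and Dend (right) of the same mouse, with a line for each of 17 mice coloured by treatment and a black bar at the mean of these mice. The line climbs from Macro to Dend in 16 mice for Flt3 and 15 for Batf3, and falls in 17 for Irf8 and 15 for Siglech.

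Against the mean of the 10 other clusters, Flt3 was by far the most raised of the genes that passed the filter, with a log2 fold change of 2.98 in Dend (SE 0.0997, edgeR adjusted p = 1.528e-94) and 1.97 in Macro (adjusted p = 1.916e-52). Zbtb46 stood at 1.21 in Dend and 0.56 in Macro, and Irf8 at 0.44 in Dend (adjusted p = 0.00339) and 1.55 in Macro, all called. The call of Irf8 in Dend was lost when a library needed 30 nuclei (0.37, edgeR adjusted p = 0.0761). Id2 was called in Dend (0.60, adjusted p = 9.424e-06) and not in Macro (0.13, adjusted p = 0.365). Irf4 was called in neither cluster, at 0.24 (adjusted p = 0.138) and 0.19 (adjusted p = 0.140). Of all genes, 23.8% were called higher and 22.6% lower in Dend than in the other clusters, and 26.8% and 20.3% in Macro.

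Without the filter on low counts, Batf3 was higher than in the other clusters by 2.74 in Dend and 1.34 in Macro, Itgax by 1.98 and 2.11, Xcr1 by 1.93 and 1.96, and Clec9a by 0.82 and 1.51 on the log2 scale, and all these were called by edgeR. Siglech was called higher in both clusters too, but no fold is given, since 3 of the clusters it was compared with had no count. In that fit 21.3% of all genes were called higher in Dend and 23.9% in Macro. Over both fits, 9 of the 10 genes were called higher in Dend and 8 in Macro, the exceptions being Irf4 in both clusters and Id2 in Macro.

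The 71 peaks of the 10 genes showed where the differences between Dend and Macro lay. At the usual filter only 3 were deep enough to test. They were the Id2 peak centred 937 bases inside the gene and the promoter peaks of Irf4 and Irf8. None was called between Dend and Macro (edgeR, log2 fold changes 0.25, 0.16 and -0.41, adjusted p = 0.481, 0.793 and 0.230). Of all tested peaks, 3.54% were higher and 6.49% lower. Against the other clusters Id2 (0.42, SE 0.141, adjusted p = 0.0199) and Irf4 (0.42, SE 0.161, adjusted p = 0.0454) were higher in Dend and Irf8 was not called (0.41, adjusted p = 0.0738), beside 12.6% of peaks higher and 7.22% lower. With a lower bar of 30 counts over Dend and Macro together, which was added after the data were seen, 37 of the 71 could be tested, and 11 were higher and 6 lower in Dend than in Macro. Of all 28356 peaks that met this bar, 14.4% were higher and 15.5% lower. This bar admits peaks by their counts in Dend and Macro themselves, so it favours peaks open in these clusters. The calls against the other clusters are therefore not independent of the bar and are given only as a description. Against the other clusters 29 of the 37 were higher in Dend, beside 44.1% of all these peaks higher and 8.44% lower. The peaks of Id2 (0.21, edgeR adjusted p = 0.186) and Irf4 (0.21, adjusted p = 0.173) called at the usual filter were no longer called.

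Levels of single peaks are in CPM of all peak counts of a library, so they are on another scale than the gene levels. In Flt3, 6 peaks were higher in Dend and none was lower. The strongest lies 44435 bases inside the gene over a coding exon (chr5:147355884-147356225), with 62 counts in Dend and 6 in Macro, or 41.8 ± 25.0 against 3.24 ± 6.73 CPM. It was higher in Dend in 15 of 17 mice (log2 fold change 2.11, SE 0.230, edgeR adjusted p = 9.983e-14). The prior count of the fit pulls fold changes of sparse peaks towards 0. Here and for the peaks below, the fold change can therefore fall well short of the ratio of the mean CPM. A second Flt3 peak, 940 bases inside the gene in an intron, had 30 and 7 counts (1.21, SE 0.261, adjusted p = 6.682e-04). The 4 others, at 28961, 46105, 48356 and 61059 bases, differed by 0.78 to 0.87. The peak at the start itself, with 52 and 41 counts, was not called (0.55, adjusted p = 0.0991). All called differences at Flt3 lay within the gene body, but its peaks centred upstream of the start fell below the bar of 30 counts and were not tested.

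At Batf3 every peak was centred within the gene body, so the called ones could lie nowhere else. The peak 8218 bases inside the gene (chr1:191105931-191106200, intron) had 33 counts in Dend and 2 in Macro, or 25.6 ± 24.6 against 1.94 ± 8.87 CPM, and it was higher in Dend in 11 of 17 mice (1.67, SE 0.218, edgeR adjusted p = 7.121e-09). The peak 575 bases inside differed by 0.69 (adjusted p = 0.0246). At Zbtb46 the promoter peak was higher in Dend (0.56, SE 0.214, adjusted p = 0.0315), with 73 and 65 counts. At Id2 the promoter peak did not pass, but one 1677 bases upstream did, in 14 of 17 mice (0.77, SE 0.234, adjusted p = 0.0054).

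At Irf8, 3 peaks in the gene body were lower in Dend. The one 14477 bases from the start (chr8:120750581-120751089, intron) had 5 counts in Dend and 79 in Macro, or 1.58 ± 4.54 against 44.8 ± 27.1 CPM. It was not higher in Dend in any of 17 mice (-1.95, SE 0.256, edgeR adjusted p = 3.05e-11). Those at 7394 and 15856 bases differed by -1.04 and -1.03. The promoter peak of Irf8 held 56 and 118 counts and was not called (-0.46, adjusted p = 0.0686).

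Siglech and Clec9a were lower in Dend close to their starts. The promoter peak of Siglech had 13 counts in Dend and 58 in Macro (-1.10, SE 0.230, edgeR adjusted p = 2.61e-04), and the peak 1442 bases upstream of Clec9a had 28 and 86 (-0.88, SE 0.214, adjusted p = 8.174e-04). This Clec9a peak is the one shared with Clec1b, and it held 28 of the 40 Clec9a counts in Dend and 86 of 106 in Macro. The 2 peaks of Xcr1 went in opposite directions, which its summed level does not show. The peak near its 3′ end, over an untranslated exon and shared with Fyco1, was higher in Dend (0.77, SE 0.226, adjusted p = 0.00717), and the one 1462 bases upstream was lower (-0.87, SE 0.252, adjusted p = 0.00519). No tested peak of Irf4 or Itgax was called.

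**Figure D3:**
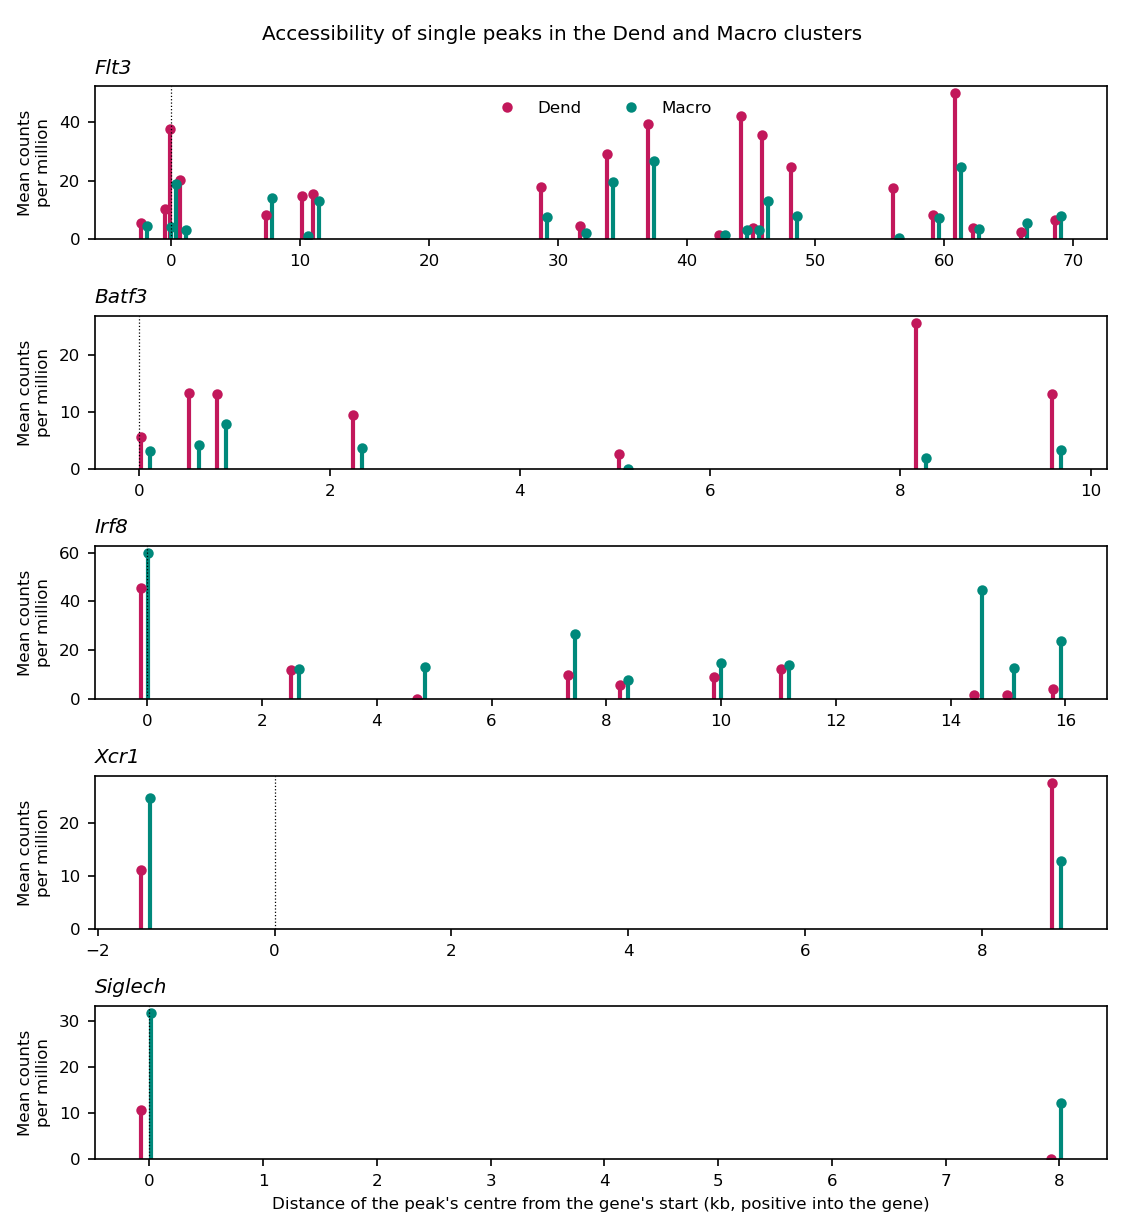
Mean CPM (of all peak counts) of every peak of Flt3, Batf3, Irf8, Xcr1 and Siglech in Dend and Macro (stems, no error drawn), by the distance of the peak centre from the start of the gene in kb, positive into the gene. At the Flt3 peak 44435 bases in, the means were 41.8 and 3.24 CPM, and at the Irf8 peak 14477 bases in they were 1.58 and 44.8 CPM.

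The letters in these windows were counted as a description. Within the central 300 bases at most, the NF-kB letters were present in 3 of the 11 peaks that were higher in Dend (both Flt3 windows and the Batf3 window printed above), in 0 of the 6 lower ones, in 0 of the 20 tested but not called and in 1 of the 34 below 30 counts. Of all 189598 peaks, 2.204% hold them. PU.1 letters were in 5 of 11, 4 of 6 and 4 of 20 (25.65% of all peaks), AP-1 letters in 2, 0 and 3 (11.79%), and IRF letters in 0, 1 and 2 (10.57%). Of the 27025 RefSeq promoters, each 300 bases long, 24.1% hold PU.1 letters, as the Siglech promoter does, 7.933% AP-1, 6.605% IRF and 1.147% NF-kB. A match shows only that the letters are present.

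Which subset the Dend cluster resembled was examined with lists of known marker genes, described by counts and medians beside a median of -0.04 for all tested genes. The list of activated and migratory dendritic cells separated Dend from Macro without overlap: its summed level was 3520 to 4594 CPM in the 17 Dend libraries and 1691 to 2432 CPM in the 21 Macro libraries. Of its 24 genes, 18 passed the filter, and 15 were higher in Dend, none lower and 3 not called (median 0.81). The leading ones were Cacnb3, a calcium channel subunit (3.31), Fscn1, an actin bundler of mature dendritic cells (2.89), and Adcy6, an adenylyl cyclase (2.71). Fscn1 measured 100.4, 182.8 and 340.6 CPM in Dend (lowest, median, highest) and 0, 11.35 and 47.15 CPM in Macro, with no overlap.

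The list shared by conventional dendritic cells also leaned to Dend, with 8 of 13 tested genes higher, 1 lower and a median of 0.63. Its strongest were Hmgn3, a nucleosome-binding protein (1.85), Kmo, an enzyme of tryptophan breakdown, in the other direction (-1.83), and Flt3. Its summed level was 3044 ± 233.6 CPM in Dend and 2168 ± 374.2 CPM in Macro.

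The subset lists did not lean to Dend. Of 15 cDC1 genes 6 were tested, with Id2 higher, Irf8 lower and 4 not called (median -0.18), and the summed level was 1208 ± 117.4 CPM in Dend and 1345 ± 213 CPM in Macro. Of 12 cDC2 genes, 11 had a peak and 6 were tested, with none higher and 4 lower (median -0.68), led by Sirpa, a receptor for CD47 (-1.17), Itgam, the CD11b chain (-0.84), and Zeb2, a zinc finger factor (-0.80). Of 16 pDC genes 8 were tested, with Runx2 higher (0.41), Tcf4, the E protein that drives pDC identity, lower (-0.63) and 6 not called. In the fit without the filter, 2 of 15 cDC1 genes were higher and 2 lower in Dend than in Macro. There, 8 of 11 cDC2 genes were lower and none higher, and 7 of 16 pDC genes were lower and 1 higher. Of all genes in that fit, 8.43% were higher and 9.35% lower. By these lists, chosen with earlier results of these data known, Dend carried a conventional dendritic cell-like and activated dendritic cell-like pattern relative to Macro. The list of conventional dendritic cells holds the members Flt3, Zbtb46 and Itgax, so it does not stand apart from them. Nor do the subset lists: cDC1 holds Batf3, Irf8, Id2, Xcr1 and Clec9a, cDC2 holds Irf4 and pDC holds Siglech. The cDC1 genes called in the fit without the filter were all members, namely Batf3, Id2, Irf8 and Clec9a. Neither cDC1, cDC2 nor pDC could be assigned to the cluster. Against the other 10 clusters, the tested genes called higher in Dend and in Macro were 5 and 4 of 6 for cDC1, 6 and 7 of 8 for pDC, and 2 and 5 of 6 for cDC2. They were 12 and 10 of 13 for conventional dendritic cells, beside 23.8% and 26.8% of all genes. For activated and migratory dendritic cells they were 18 and 13 of 18, with 5 lower in Macro. Macro thus shared much of both patterns when set against the other clusters.

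Markers of other cell types were measured beside these. Of 20 macrophage genes 7 were tested, with 6 lower in Dend and none higher (median -1.25), among them Mertk (-1.90) and Csf1r (-1.42), and their summed level was 697.5 to 1635 CPM in Dend and 1173 to 2351 CPM in Macro. Plac8 (-1.24) was lower in Dend among the monocyte genes. Chil3 and S100a8 were at 0 in Dend, but Chil3 was at 0 in Macro too and so does not tell the clusters apart. The lymphocyte lists stood at a similar level in both clusters, the B cell list at 753.4 CPM in Dend and 881.4 in Macro against 4457 in B cells, and the T cell list at 531.9 and 588.4 against 2708 CPM in the Tcell cluster. Between Dend and Macro, Bank1 (-0.82) and Cxcr5 (0.43) of 13 tested B cell genes, Tcf7 (1.00) of 12 T cell genes, Il7r (1.32) of 3 genes of natural killer and innate lymphoid cells, and Pparg (-0.51) of 7 adipocyte genes were called. Their part in the values of the 10 genes was not tested.

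Class II antigen presentation genes were lower in Dend than in Macro in 4 of 7 tested and higher in none (median -0.35), with H2-DMb2 at -0.55, Ciita at -0.54 and H2-Aa at -0.47, whereas against the other clusters 6 were higher in Dend and 1 lower. A list of 33 genes that act in the same pathways, such as ligands, cofactors and upstream factors, also holds Id2 and some genes of the lists above. Of these 28 were tested, with 7 higher, Id2 among them, and 8 lower in Dend than in Macro (median 0.06). Etv3, a repressor that steers monocytes towards dendritic cells, was the most raised (1.52), and Csf1r, the receptor of the macrophage growth factor, and Gfi1, a repressor of the myeloid program (-0.91), were the most lowered.

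**Figure D4:**
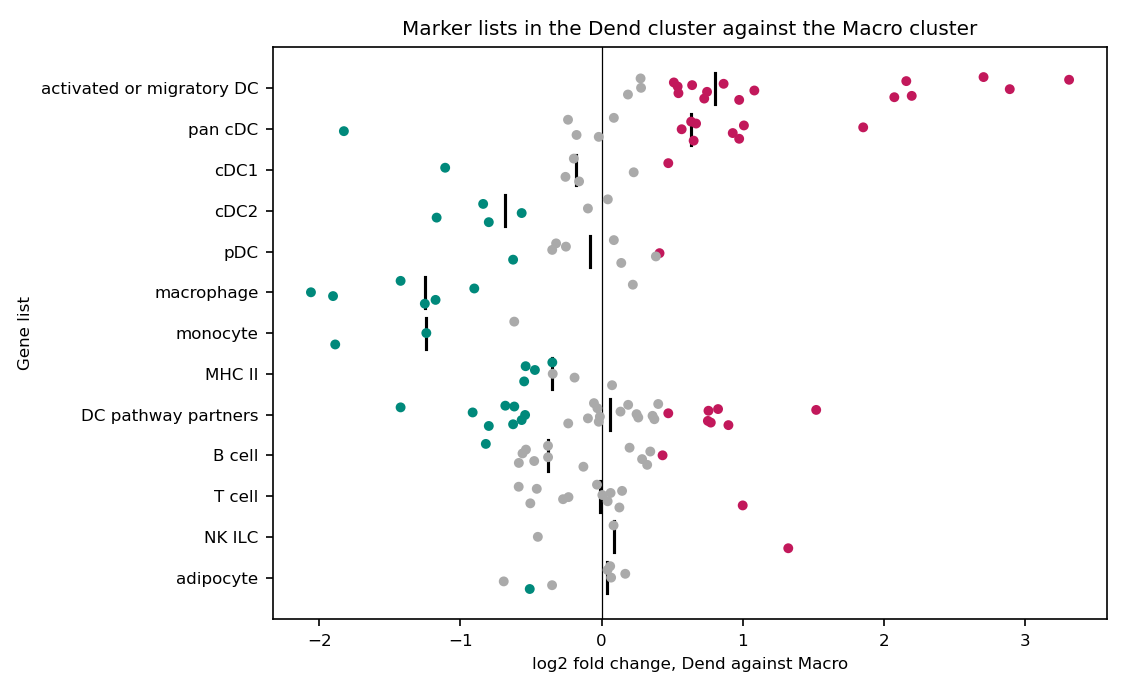
Log2 fold change of Dend against Macro for each tested gene of each list (points), with the list median as a black bar. Called genes are pink where higher in Dend and green where lower, the rest grey. Of 18 tested genes of activated and migratory dendritic cells 15 are pink, and of 7 macrophage genes 6 are green.

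The genes whose mean level followed each member most closely over the 12 clusters are given as a description, by Pearson's r of log2(mean CPM + 1). Flt3 was closest to Dapp1, Ifngr2 and Dclre1c (r = 0.95, 0.95 and 0.94), and Batf3 to Fam3b, Tmem51 and Vps39 (0.91, 0.90 and 0.90). Irf8 was closest to Ncf4, Arid3a and Arl8a (0.92, 0.90 and 0.89), and Clec9a to B4galt6, Stard8 and Csf1r (0.93, 0.93 and 0.92). Clec9a thus ran beside the receptor that is a marker of macrophages, and Itgax beside Alox5ap (0.96), Cd86 (0.94) and Ghitm (0.94). Siglech was closest to Tep1, Erlin2 and Slc35f6 (0.94, 0.90 and 0.88), Xcr1 to Ppfibp2, Espl1 and Depdc5 (0.92, 0.91 and 0.91), and Id2 to Cetn4, Tnfrsf1b and Vav3 (0.92, 0.90 and 0.89). Zbtb46 ran with Fhod1, Dstyk and Fam131a (0.94, 0.91 and 0.91) and Irf4 with Rest, Fam107b and Txnl1 (0.95, 0.94 and 0.93). The 12 points share the libraries of the same mice, and clusters of few nuclei weigh as much as large ones.

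Whether cold or CL changed the 10 genes within a cluster was asked by comparing the mean of the cold or CL groups with day0RT. Both comparisons share the 3 day0RT mice. No member was called in Dend, Macro or B cells. Of all genes tested, 0% were called in Dend under cold and under CL (1736 genes, of which 108 and 116 had an unadjusted p under 0.05) and 0% in Macro (3587 genes, 144 and 196), and DESeq2 called 0 in each. In B cells, where libraries were deeper, 0.114% of 11441 genes were called under cold and 1.31% under CL. Dend libraries of treated mice were shallow, with 11 to 37 nuclei under cold and 10 to 49 under CL, against 44 to 154 in day0RT.

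Flt3 came closest to a change. In Dend it measured 499.4, 600.7 and 627.2 CPM in the day0RT mice, 182.8 to 681.4 with a median of 382.6 in 8 cold mice, and 435.7 to 702.5 with a median of 502.6 in 6 CL mice. All 3 day1C mice lay below every day0RT value (280.2 to 398.6 CPM, from 8 to 20 counts). So did both day3C mice, at 182.8 and 454.2 CPM from 4 and 16 counts. Of the day7C mice, mouse 2 did not (681.4 CPM, from 14 counts), while mice 1 and 3 did, from 21 and 30 counts. The day0RT values rested on 63 to 130 counts. The CL range overlapped with day0RT. The log2 fold change under cold was -0.56 (SE 0.163, unadjusted p = 0.00065, edgeR adjusted p = 0.249) and under CL -0.15 (adjusted p = 0.939). Without day3C mouse 3 the cold difference was -0.86, but mouse 2 then stood alone for day3C at the same weight as the other days. Over all mice left out in turn the cold difference ran from -0.86 to -0.43 and was never called. In Macro, Flt3 was 255.4, 326.2 and 398.6 CPM at day0RT, 105.7 to 331.3 under cold and 99.56 to 323.5 under CL. The Macro differences were -0.48 (unadjusted p = 0.0207, adjusted p = 1.00) and -0.65 (unadjusted p = 0.00236, edgeR adjusted p = 0.717). The summed level of the macrophage list in Dend was 1017 to 1126 CPM at day0RT, 697.5 to 1192 under cold and 802.8 to 1635 under CL, and its part in these values was not tested.

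In Dend, Id2 differed by 0.04 under cold and -0.41 under CL (edgeR adjusted p = 0.833), and Zbtb46 by 0.03 and -0.17. Irf8, not tested there for low counts, was 59.73, 92.42 and 122.5 CPM at day0RT, 35.03 to 215.6 under cold and 53.02 to 200.7 under CL, so the treated ranges enclosed the untreated one. In the fit without the filter no member was called in Dend or Macro, and Irf4 under CL in Dend stood at 0.59 (unadjusted p = 0.03875, adjusted p = 0.707). Its medians were 80.1 CPM at day0RT, 79.24 under cold and 165.5 under CL. Batf3 medians were 101.7, 89.8 and 114.5 CPM, Xcr1 49.78, 35.5 and 54.44, Itgax 59.73, 36.4 and 104.6, and Clec9a 42.4, 23.64 and 38.99 CPM, each with overlapping ranges. Siglech in Dend rested on 6, 6 and 1 counts.

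Whether treatment acted differently in Dend and Macro was tested as an interaction in 1 fit of both clusters. This fit had no mouse term, so Dend and Macro libraries of the same mouse were treated as independent. None of 5422 genes was called under cold or CL (280 and 290 at an unadjusted p under 0.05). Of the 7 members tested, Irf4 under CL was the furthest (0.86, SE 0.395, unadjusted p = 0.0301, edgeR adjusted p = 0.908), followed by Itgax under CL (0.73, SE 0.416, adjusted p = 0.962). Flt3 differed by 0.44 under CL (adjusted p = 0.972) and -0.18 under cold (adjusted p = 0.999).

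**Figure D5:**
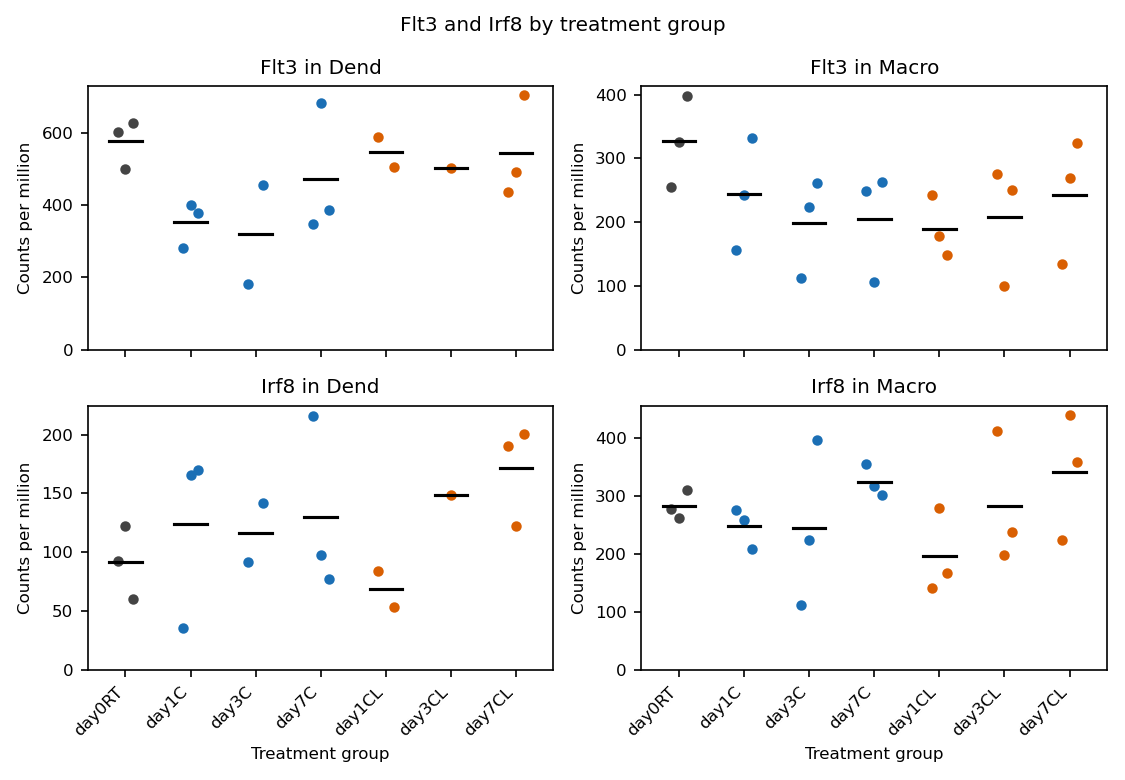
Level of Flt3 and Irf8 in CPM in Dend and Macro libraries for each of the 7 groups, with 1 point per mouse and a black bar at the group mean, and fewer points where a mouse lacked a library. Flt3 in Dend lies between 499.4 and 627.2 CPM at day0RT and between 182.8 and 681.4 CPM in the cold groups.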

How the data were processed

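The authors merged 2 sequencing runs, aligned reads with Bowtie2 to mm10, removed duplicates per barcode, low-quality barcodes and doublets, called peaks with MACS2 per cluster and clustered nuclei with Signac. They deposited a binary matrix of 189598 peaks by 32552 nuclei (entries of 1 number 65588856) with the mouse, group and cluster of each nucleus. The deposited entries, summed over nuclei, are the counts used here, so 1 read and several are not told apart. The 4 deposited samples are sequencing lanes that hold all groups, and groups were taken from the nuclei's own annotation.

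Peaks were given to GENCODE vM21 protein-coding genes by overlap with the body or 2000 bases upstream. Counts were summed per mouse and cluster, with at least 10 nuclei (223 libraries). Genes and peaks were tested with edgeR 4.0.16 in R 4.3.3 (quasi-likelihood, TMM factors, prior count 2, two-sided, genes kept by filterByExpr at a minimum count of 10, proportion 0.7 and total 15), with the mouse as a block between clusters, since all clusters come from the same mice. A call is an adjusted p under 0.05. The SE of edgeR is the fold change divided by the square root of F. Where the fold change without a prior count was near 0 or of the other sign, that value was divided instead. The prior count pulls fold changes of genes and peaks with few counts towards 0. Within clusters, the mean of the cold or CL groups was compared with day0RT. Alternatives were DESeq2 1.42.0, RLE factors, no filter, promoter peaks only, 5 or 30 nuclei per library, nuclei with at least 2000 entries, only Dend and Macro libraries, no block, no peaks shared by genes and leaving out each mouse. Added after the data were seen were leaving out 3 mice with few lymphocytes or nuclei of shared barcode sequence, peaks with at least 30 counts and the interaction fit. The interaction fit had no mouse block. The scripts (Python 3.11.15) were tested on simulated data with a dispersion set to 0.1, not estimated from these data. Of simulated 2-fold changes under cold, 15.85% were recovered in Dend, 17.05% in Macro and 24% in B cells. Of 4-fold changes, 91.46%, 95.24% and 94.95% were recovered. Between Dend and Macro, 59.18% of 2-fold and 90.82% of 4-fold changes of genes were recovered.

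All 10 genes are named in every comparison, from other lists at most the 3 called genes with the largest change between Dend and Macro, and the 3 genes closest in pattern to each member. Some genes of these lists are not reported here. Fscn1 levels and genes at 0 were named after their values were seen. The members and lists were chosen with earlier results of these data known.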

Additional observations from a re-analysis of the deposited data

Results flagged for a closer look

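In 60 sets of 4 to 10 libraries (a member, a cluster and a treatment), 8 held a flagged mouse. Its gap to the nearest neighbour, divided by the range of the set, exceeded Dixon's 95% critical value. For normally distributed values chance gives about 1 in 20. The values here come from counts, often few, and pool the days of a treatment, so that rate need not hold. Several of the 8 flagged values rest on very few counts. Siglech was 26.51 CPM in Dend of day1CL mouse 2, from 1 count, with every other CL mouse at 0, and 121.1 CPM in Macro of day1CL mouse 1, from 6 counts, with the next at 50.78. Irf4 was 0 in Dend of day7CL mouse 3, the library with 9965 gene counts, and 317.2 CPM in Macro of day7C mouse 2, from 6 counts. In B cells, Xcr1 was 68.86 CPM in day1CL mouse 3, one of the mice with few lymphocytes, from 3 counts, and 29.31 CPM in day7C mouse 2, from 9 counts. Batf3 was 22.95 CPM in B cells of the same day1CL mouse 3, from 1 count. Itgax was 11.81 CPM in B cells of day3C mouse 1, also a mouse with few lymphocytes, from 10 counts, with the next at 19.29 CPM.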

How the results depend on the processing

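Members called between Dend and Macro (4 of 5 tested) were 7 of 10 with no filter, 2 of 2 with only Dend and Macro libraries and 2 of 3 with promoter peaks only. Against the other clusters, 4 of 5 tested in Dend became 8 of 10 with 30 nuclei per library (where Irf8 was not called), 9 of 10 with no filter and 7 of 8 without the 3 mice with few lymphocytes. In Macro 3 of 5 became 8 of 10, 8 of 10 and 6 of 8, and 1 of 3 with promoter peaks only. Leaving out each mouse in turn changed none of these counts. Those fits kept the genes tested and the trend of the spread from the fit with all mice. Some of the mice left out had no Dend library. Of all genes, 11.8% were called higher and 13.8% lower in Dend than in Macro, and 8.43% and 9.35% with no filter. Set against the other clusters, 23.8% of all genes were higher in Dend and 26.8% in Macro, and 21.3% and 23.9% with no filter. The shares of all genes in the other settings are not given here, so the member counts there were not set beside them. Member peaks called were 17 instead of 0 between Dend and Macro with 30 counts per peak. Against the other clusters, 2 were called at the usual filter, the Id2 peak centred 937 bases inside the gene and the promoter peak of Irf4. They were not among the 29 called with 30 counts per peak. The 2 became 0 with a mean of at least 5 counts or an adjusted p under 0.01, and 1 with no replicate block. The replicate block, that is the mouse, changed no other call. Without peaks shared by genes, Irf8 had no peak left.

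All genes called between Dend and Macro (2280) were 1468 with deep nuclei, 544 with only Dend and Macro libraries and 463 with promoter peaks only, which also gave 1068 of 4132 for Dend and 1200 of 4190 for Macro against the other clusters. In B cells, 150 calls under CL became 19 with DESeq2, 17 with promoter peaks and 12 to 186 without 1 mouse, and 13 under cold became 0, 4 and 0 to 23. In Dend, 0 calls became 1 under CL with 5 nuclei per library and 2 under cold with no filter, and without 1 mouse 0 to 3 under CL. In Macro, CL gave 0 to 1 without 1 mouse.

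The call of Irf4 in Dend against the other clusters appeared with RLE factors (0.40, adjusted p = 0.0143 by edgeR) and promoter peaks (0.46, adjusted p = 0.0131). Differences near 0 that were not called turned sign. With promoter peaks, Flt3 (-0.0133) and Irf4 (-0.0464) did so under CL in B cells and Id2 (0.0167, and 0.0103 with DESeq2) under CL in Macro. With no filter, Id2 (-0.0820) and Zbtb46 (-0.0947) did so under cold in Dend, Zbtb46 also with 30 nuclei (-0.0903). Irf4 between Dend and Macro was -0.0292 without nuclei of shared barcode sequence, and Irf8 under cold in Macro was 0.0548 without the 3 mice. Without 1 mouse, Irf4 ran from -0.0230 to 0.1406 between Dend and Macro, from -0.8744 to 0.0383 under CL in Macro, from -0.3414 to 0.0431 under cold in Macro and from -0.0545 to 0.0143 under cold in B cells. Id2 ran from -0.1114 to 0.0277 under CL in Macro and from -0.1222 to 0.1287 under cold in Dend. Zbtb46 in Dend ran from -0.5355 to 0.1240 under CL and from -0.1167 to 0.1502 under cold. Irf8 ran from -0.2172 to 0.0522 under cold in Macro and from -0.1043 to 0.0007 under CL in B cells. Under cold in B cells, Itgax ran from -0.0063 to 0.1610 and Xcr1 from -0.1592 to 0.5090. The causes were not tested. Treated Dend libraries held 10 to 49 nuclei, and the part of depth in the missing calls was not tested.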
